A study of Mus musculus with 8 samples.

Results

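The activin, inhibin and follistatin system was followed through 9 genes in whole pituitary of young and old mice. They were taken by gene symbol: the ligand subunit genes Inha, Inhba and Inhbb, the binding protein genes Fst and Fstl3, the receptor genes Acvr1b, Acvr2a and Acvr2b, and the co-receptor gene Tgfbr3. All 9 were found, each on 1 of the 49585 gene rows listed per library. Of these genes, Acvr2b alone passed the test between ages and was higher in old pituitary, and that call was lost under most other ways of processing the data.

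The libraries came from whole pituitary of wild-type (WT) C57BL/6 mice, 4 from young mice of 2 to 3 months and 4 from old mice of 18 to 24 months, all kept under specific pathogen free conditions on regular chow. No allele or agent separated the groups, so that age was the contrast. The labels number the libraries within each age but do not tie each to a separate mouse, and p-values therefore measure the spread between these libraries, which may in part be technical. Polyadenylated RNA was sequenced, and each value is an FPKM (fragments scaled to kilobases of exon and to the size of the library).

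Activins are dimers of inhibin beta subunits, and inhibins pair a beta subunit with the alpha subunit that Inha encodes. Activin binds a type II receptor (encoded by Acvr2a or Acvr2b), which recruits and phosphorylates a type I receptor such as the product of Acvr1b, and the signal passes through SMAD2 and SMAD3. In the pituitary the system is known for its control of follicle-stimulating hormone (FSH): activin made within the gland raises Fshb transcription in gonadotrophs, follistatin binds and neutralizes activin, and inhibin from the gonads, held at the cell surface by betaglycan (encoded by Tgfbr3), occupies type II receptors without signalling.

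Library totals were 15042321 to 20429604 fragments. Ribosomal RNA repeat genes took 33.8 to 40.3% of fragments in young and 33.8 to 38.1% in old libraries. These fragments count in the library size behind the FPKM. The whole numbers of fragments behind the FPKM were computed back from exon lengths, and members with at least 1 FPKM on average had between 87 and 1642 fragments per library. Xist was at 22.5 to 43.5 FPKM in all 8 libraries, while Ddx3y, Uty, Kdm5d and Eif2s3y, which lie on the Y chromosome, were at 0 in all of them. The pituitary hormone genes Prl, Gh, Pomc and Cga were abundant in every library. Old replicate 4 stood apart in genes of the posterior lobe and hypothalamus: Oxt (oxytocin) was at 4.68 FPKM there and at no more than 0.231 FPKM in the other libraries, and Avp, Rax and Nkx2-1 were also highest there.

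The order of the levels, as means over the 8 libraries in FPKM, which accounts for exon length, was Tgfbr3 (11.9), Inha (8.50), Acvr1b (5.17), Inhbb (4.38), Acvr2a (3.60), Fstl3 (3.37), Acvr2b (2.13), Inhba (0.299) and Fst (0.0661). The ranges over libraries of Acvr1b and Inhbb overlapped, as did those of Inhbb and Acvr2a and of Acvr2a and Fstl3. The ranges of Fstl3 and Acvr2b overlapped over all libraries but not within either age, and those of Inhba and Fst overlapped in old libraries but not in young ones. Tgfbr3 and Inha stood clear of their neighbours in this order in all 8 libraries.

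**Figure D1:**
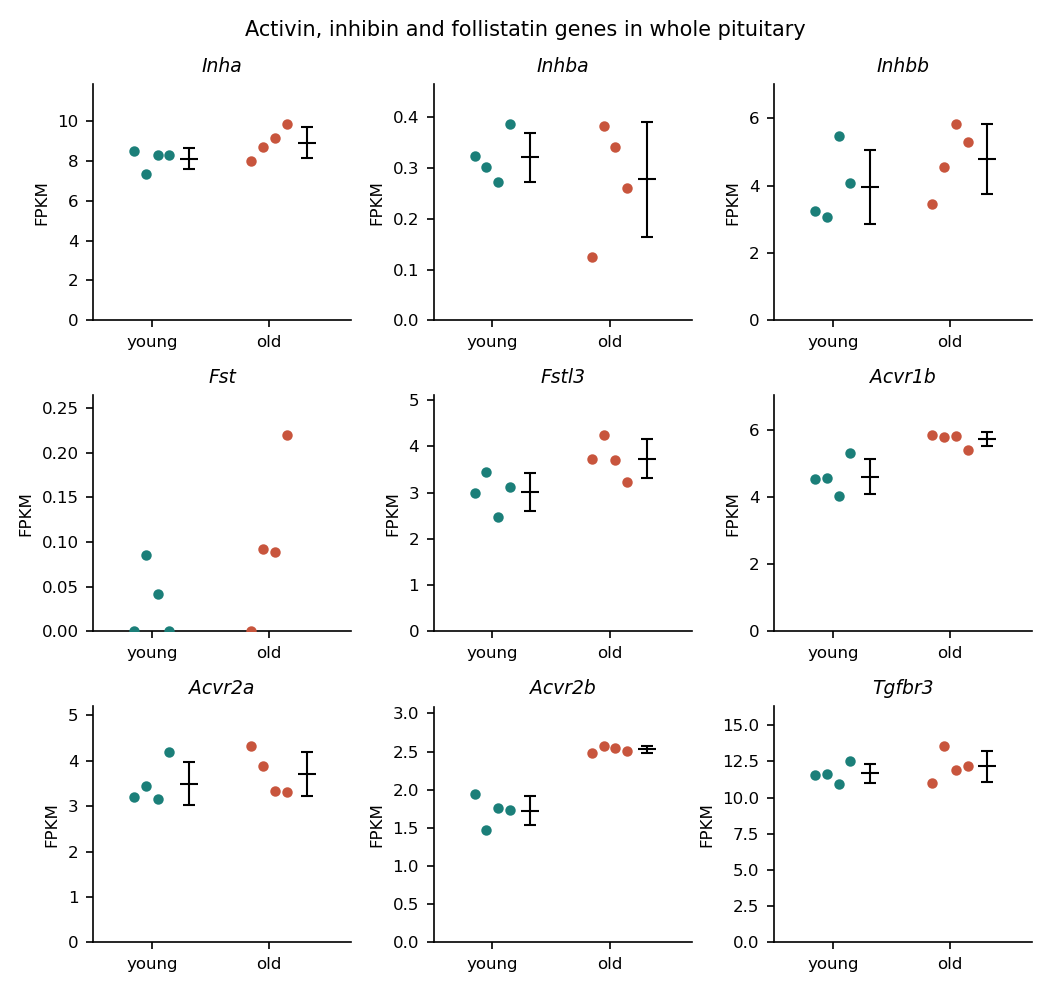
FPKM of the 9 genes by library, 4 young and 4 old (points, in replicate order), with the mean and SD of each age beside them except for Fst, whose values include 0; each vertical axis starts at 0. Acvr2b lies between 1.47 and 1.94 FPKM in young libraries and between 2.48 and 2.58 FPKM in old ones, while the ages overlap for the other genes except Acvr1b.

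Old and young libraries were compared with limma on log2(FPKM + 0.1) across the 23498 genes that averaged 0.1 FPKM or more, with Benjamini-Hochberg adjustment over all of them and a threshold of 0.05. A log2 fold change is old minus young on that scale throughout, which understates the change of low genes, and its 95% interval follows from the same fit. Of all genes tested, 2.33% passed, 1.86% as higher in old and 0.472% as lower. Of the 9 members, 8 entered the test (Fst was below the filter) and 1, Acvr2b, passed as higher. No member passed as lower, and at an unadjusted p under 0.05 there were 2, both higher, where 21.8% of all genes tested were under 0.05 unadjusted. Of the 8, 7 had a log2 fold change above 0 and 1 below, where 16446 of all 23498 genes tested were above 0. The median was 0.20, beside 0.15 over all genes tested. Every old library was above every young library for Acvr1b and Acvr2b, an ordering found upward in 13.4% of all genes tested and downward in 2.06%.

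The ligand subunits did not pass the test. Inha, the alpha subunit that turns a beta subunit into inhibin, was at 8.48, 7.35, 8.30 and 8.30 FPKM in young replicates 1 to 4 and at 7.96, 8.69, 9.11 and 9.85 FPKM in the old ones. The ages overlapped, with a log2 fold change of 0.13 ± 0.10 (SE; 95% interval -0.10 to 0.37; adjusted p = 0.485 in limma). Inhbb, which encodes the beta B subunit of activin B and inhibin B, was at 3.24, 3.08, 5.48 and 4.07 FPKM in young libraries and at 3.45, 4.56, 5.84 and 5.29 FPKM in old ones. Its libraries of 1 age differed more than the ages did: the coefficient of variation was 27.6% in young and 21.6% in old, where counting error alone would give 5.71% and 5.22%. The log2 fold change of Inhbb was 0.28 ± 0.23 (95% interval -0.26 to 0.81; adjusted p = 0.523). Inhba, which encodes the beta A subunit of activin A, was far lower, at 0.323, 0.302, 0.272 and 0.387 FPKM in young and 0.125, 0.382, 0.341 and 0.260 FPKM in old libraries. Old replicate 1 was the lowest of the 8, and the others overlapped. These levels rest on 4 to 14 fragments per library, which are lower limits because the exon length was fitted. Counting error alone thus gives a coefficient of variation of at most 29.8% in young and 31.6% in old, where 15.1% and 40.8% were observed. The interval of the Inhba log2 fold change (-0.21 ± 0.24) ran from -0.77 to 0.35 (adjusted p = 0.642). In every library the beta B transcript was above the beta A transcript, with Inhba at 0.0364 to 0.0997 of the Inhbb level in FPKM.

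The libraries fell unevenly along Inhbb, in a split shared with hemoglobin and with some other genes. Hba-a1 (hemoglobin alpha, from red blood cells) was below 10 FPKM in young replicates 1 and 2 and old replicate 1 and above it in the other 5 libraries, and those 3 libraries also held the lowest Inhbb values, 3.08 to 3.45 FPKM against 4.07 to 5.84 FPKM. Within the 3 libraries (2 young, 1 old) the log2 ratio of the means, old over young, with 0.1 FPKM added to each, was 0.12 for Inhbb, and within the 5 it was 0.13, both below the 0.26 over all 8. The endothelial genes Plvap, Kdr and Pecam1 were also lowest in the 3 libraries with low hemoglobin, while Cdh5 and Emcn were not. Among the other 5, Inhbb did not rise with Hba-a1 throughout. Young replicate 3 had 19.2 FPKM of Hba-a1 and 5.48 FPKM of Inhbb, and young replicate 4 had 25.9 and 4.07 FPKM. Per the study's text, mice were perfused to clear the blood before RNA was extracted. The cut at 10 FPKM was chosen after the values had been seen, and the part of blood in the Inhbb values was not tested. For Acvr2b the same ratio was 0.52 within the 3 libraries, within the 5 and over all 8.

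The binding proteins differed in level. Fstl3, which encodes follistatin-like 3, a secreted glycoprotein that binds activin and related ligands, was at 3.00, 3.45, 2.48 and 3.13 FPKM in young libraries and at 3.73, 4.25, 3.71 and 3.23 FPKM in old ones. Old replicate 4 lay within the young range and the other old libraries above it. The log2 fold change was 0.30 ± 0.13, with a 95% interval of -0.01 to 0.61 (adjusted p = 0.239 in limma). Exons of Prss57 on the opposite strand overlap 1157 of the 2445 exon bases of Fstl3, and whether counting used strand was not stated, so that its fragments are uncertain. Fst, which encodes follistatin, was near the limit of detection. It had 0, 3, 2 and 0 fragments in young replicates 1 to 4 and 0, 4, 4 and 9 in the old ones. Summed, these were 5 fragments of 70953980 (exact Poisson 95% interval 1.62 to 11.7 fragments) in young and 17 of 71347796 (9.90 to 27.2) in old libraries. These intervals cover counting error only and rest on fragments that are lower limits, since the exon length of Fst was fitted. A library at 0 fragments allows up to 3. Old replicate 4, the library with posterior lobe transcripts, held 9 of the 17, and the other 3 old libraries held 8 together; the part of posterior lobe tissue in the Fst count was not tested. With no filter on low values, the log2 fold change of Fst was 0.54 ± 0.37 (adjusted p = 0.506), which did not pass. The coefficient of variation of Fst was 128% in young and 90.2% in old libraries, where counting error alone gives at most 89.4% and 48.5%.

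The receptors held the only call. Acvr2b, which encodes activin receptor type IIB, was at 1.94, 1.47, 1.76 and 1.74 FPKM in young libraries and at 2.48, 2.58, 2.55 and 2.50 FPKM in old ones. All 4 old libraries lay above all 4 young ones. Young libraries averaged 1.73 ± 0.193 FPKM and old ones 2.53 ± 0.0422 FPKM (SD, n = 4 each), a 1.46-fold difference that rested on 484 and 709 fragments. The log2 fold change was 0.53 ± 0.10 (95% interval 0.29 to 0.77; adjusted p = 0.045 in limma, close to the threshold). The old libraries were closer together than counting error alone gives: their coefficient of variation was 1.67%, against 7.51% from counting error, while the young libraries were at 11.1% against 9.09%. The call was lost, with the direction kept, when any 1 of the 8 libraries was left out (log2 fold changes of 0.46 to 0.59, adjusted p = 0.058 to 0.120), and under the 4 other library scalings (0.39 to 0.40, adjusted p = 0.103 to 0.108). With voom on the recovered fragments, the log2 fold change was 0.41 and the adjusted p = 0.065. Voom takes counting error into account and also uses TMM scaling, 1 of those 4, so it is not independent of them.

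Acvr2a, which encodes the other activin type II receptor, was at 3.19, 3.45, 3.15 and 4.19 FPKM in young libraries and at 4.33, 3.87, 3.33 and 3.31 FPKM in old ones. The ages overlapped throughout, and the log2 fold change was 0.08 ± 0.14 (95% interval -0.23 to 0.40; adjusted p = 0.754 in limma). Acvr1b, which encodes the type I receptor ALK4, was at 4.53, 4.56, 4.04 and 5.30 FPKM in young libraries and at 5.86, 5.80, 5.83 and 5.40 FPKM in old ones. Every old library was above every young one, though old replicate 4 lay only just above young replicate 4. Its log2 fold change was 0.31 ± 0.10 (95% interval 0.07 to 0.55; unadjusted p = 0.018, adjusted p = 0.147 in limma), and Acvr1b did not pass. Tgfbr3, which encodes betaglycan and was the most abundant of the 9 genes per length of exon, was at 11.6, 11.6, 10.9 and 12.5 FPKM in young libraries and at 11.0, 13.6, 11.9 and 12.2 FPKM in old ones. The ages overlapped, and the interval of its log2 fold change (0.06 ± 0.10) ran from -0.17 to 0.28 (adjusted p = 0.772). In a bulk sample, fewer cells of a type and less RNA per cell cannot be told apart, for these genes as for all others here.

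The sequences just before the transcription starts of the type II receptor genes are shown because these genes encode receptors for the same ligands while only Acvr2b passed the test. They come from RefSeq (GRCm38.p6), which held the promoters of 7 of the 9 members, and both lie on the plus strand, at chr2:48813859-48814108 for Acvr2a and chr9:119401928-119402117 for Acvr2b. The Acvr2b stretch stops at 190 bases because the GENCODE M21 transcript begins upstream of the RefSeq one. Capitals mark the GC box, GGGCGG or its reverse complement CCGCCC.
Acvr2a: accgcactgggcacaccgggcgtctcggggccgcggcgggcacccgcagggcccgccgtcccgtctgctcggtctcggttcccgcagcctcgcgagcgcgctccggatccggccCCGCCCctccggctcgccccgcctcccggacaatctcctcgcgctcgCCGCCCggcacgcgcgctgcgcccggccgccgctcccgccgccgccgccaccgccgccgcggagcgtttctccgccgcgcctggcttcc
Acvr2b: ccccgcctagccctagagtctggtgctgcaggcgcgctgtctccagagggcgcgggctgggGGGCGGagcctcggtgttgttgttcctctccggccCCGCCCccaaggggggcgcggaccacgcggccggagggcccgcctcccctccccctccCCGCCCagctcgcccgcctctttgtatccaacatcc
In the 250 bases before the RefSeq start, the GC box was found 2 times for Acvr2a and 3 times for Acvr2b, 4 times each for Acvr1b and Fstl3, 1 time for Inhbb, and not at all for Inha and Inhba. Of 32851 RefSeq promoter windows of that length, 32.7% held it. The windows held 49 CG dinucleotides for Acvr2a, 42 for Acvr1b, 24 for Acvr2b, 22 for Fstl3, 21 for Inhbb, 4 for Inha and 3 for Inhba, beside a median of 6 over all windows. The Inha window (chr1:75507359-75507608) lies inside the GENCODE M21 gene, downstream of its start. The Inha counts therefore do not describe the sequence before that start. A match is a description of the letters and not a binding site.

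The genes lie apart in the genome (GRCm38, GENCODE M21). Inha (chr1:75507077-75510366, plus strand) and Inhbb (chr1:119415465-119422248, minus strand) share chromosome 1, and Inhba (chr13:16011851-16031621, plus strand) and Fst (chr13:114452290-114458951, minus strand) share chromosome 13. Fstl3 is at chr10:79777272-79782630 and Acvr1b at chr15:101174067-101213684, both on the plus strand. Acvr2a is at chr2:48814109-48903269 and Acvr2b at chr9:119402118-119434995, also on the plus strand, and Tgfbr3 is at chr5:107106570-107289629 on the minus strand. Exons of Orc4 overlap 446 bases of Acvr2a exons, those of Gm43422 overlap 297 bases of Tgfbr3, and those of Gm47040 overlap 115 bases of Fst, while no annotated exon overlaps Acvr2b, Acvr1b, Inha, Inhba or Inhbb.

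The direction of the smaller differences depended on the scaling of the libraries. As deposited, the FPKM had a median log2 fold change of 0.15 over all genes, and with TMM, RLE or upper-quartile scaling, or with library sizes taken without hormone and ribosomal RNA repeat genes, that median was 0.02, 0.01, 0.01 and 0.02. With TMM scaling the log2 fold changes were -0.01 for Inha, -0.05 for Acvr2a and -0.08 for Tgfbr3, all below 0 where they had been above it. Acvr2b (0.40), Acvr1b (0.17), Fstl3 (0.16) and Inhbb (0.14) stayed above 0 with TMM scaling, and Inhba was at -0.32.

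**Figure D2:**
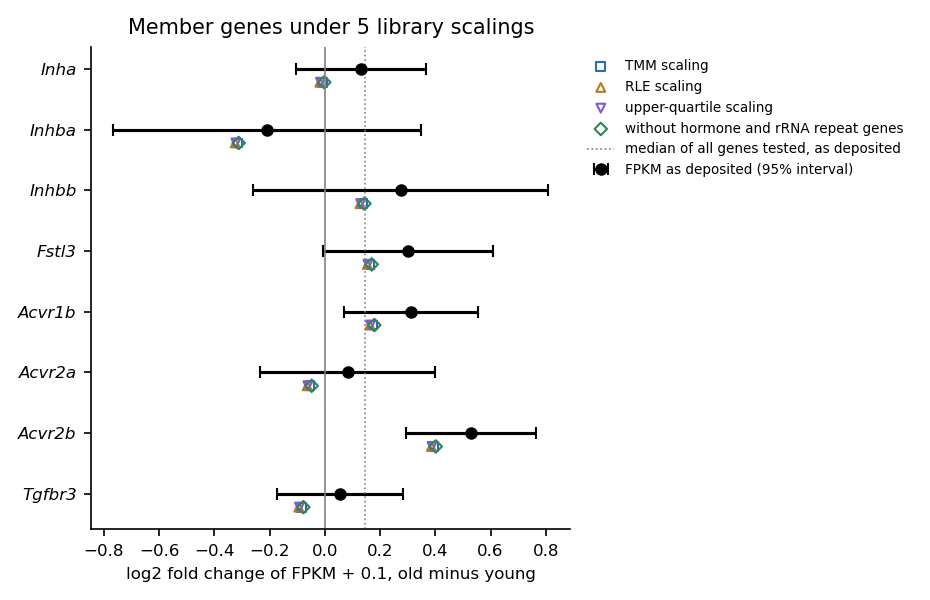
Log2 fold change, old minus young, of the 8 members tested: black points with 95% intervals for FPKM as deposited and open symbols for the 4 other library scalings, with the median of all genes (0.15) as a dotted line. Acvr2b lies furthest to the right, at 0.53 as deposited and 0.39 to 0.40 under the other scalings, while Inha, Acvr2a and Tgfbr3 cross 0.

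Ratios of members within a library do not depend on its scaling and were tested by exact, two-sided permutation over the 70 assignments of 4 and 4 libraries, with adjustment over 7 ratios. The smallest p that this design allows is 0.029, so that a single ratio could reach an adjusted p of no less than 0.2 and at least 5 ratios at the smallest p were needed for any to pass; the adjusted values therefore could hardly pass, whatever the ratios were. Acvr2a over Acvr2b was at 1.65, 2.34, 1.79 and 2.41 in young libraries and at 1.74, 1.50, 1.31 and 1.32 in old ones. Old replicate 1 lay within the young range, and the means were 2.05 ± 0.385 and 1.47 ± 0.203 (SD, n = 4 each; mean log2 difference -0.47, exact p = 0.057, adjusted p = 0.4). Inhba over Inhbb was 0.0856 ± 0.0241 in young and 0.0569 ± 0.0201 in old libraries (log2 difference -0.60, exact permutation p = 0.143, adjusted p = 0.5), with overlap.

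The balance of inhibin subunit, binding proteins and activin subunits differed less between ages. Inha over Inhbb averaged 2.14 in young and 1.91 in old libraries (exact permutation p = 0.457), and Inha over the sum of Inhba and Inhbb averaged 1.96 and 1.81 (exact permutation p = 0.514). The sum of Fst and Fstl3 over the sum of Inhba and Inhbb averaged 0.757 and 0.790 (exact permutation p = 0.8), and Tgfbr3 over Acvr2a averaged 3.37 and 3.32 (exact permutation p = 0.914). Adjusted p-values of these 4 ratios were 0.72 to 0.914. Fst over Inhbb has libraries at 0 and was computed only with 0.1 FPKM added to both, which gave a log2 difference of 0.26 (exact permutation p = 0.486).

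**Figure D3:**
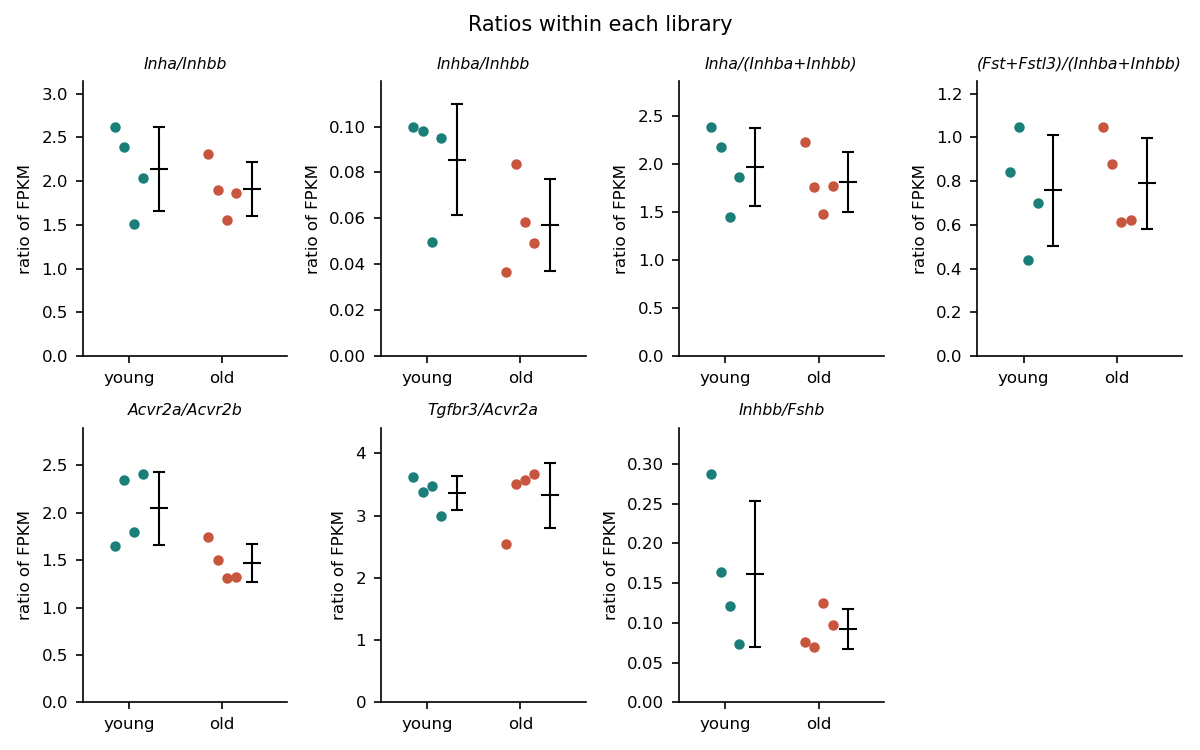
Ratios of FPKM within a library (points, 4 young and 4 old) with the mean and SD of each age; each vertical axis starts at 0. The ages overlap in all 7 ratios, and Acvr2a over Acvr2b shows 1.65 to 2.41 in young against 1.31 to 1.74 in old libraries.

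None of the other genes of the pathway passed. A list of 28 further genes (ligands, receptors, antagonists, SMAD proteins and their regulators, and processing enzymes) was counted, and 22 were tested. None was called at an adjusted p under 0.05 by limma, 5 had an unadjusted p under 0.05 (21.8% of all genes tested did), and voom called 2 (5.49% of all genes in that fit). Of the 22, 7 had a log2 fold change above 0 and 15 below, where 7052 of all 23498 genes tested were below 0. The median was -0.04, beside 0.15 over all genes tested. The 6 not tested (Inhbc, Inhbe, Mstn, Nodal, Tdgf1 and Foxh1) had 0 to 7 fragments in the libraries of an age.

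Among the co-receptors and antagonists, Tgfbr3l, a paralog of betaglycan known as an inhibin B co-receptor of gonadotrophs, was at 31.8, 22.1, 31.0 and 33.3 FPKM in young libraries and at 19.4, 20.6, 20.8 and 23.4 FPKM in old ones. Young replicate 2 lay within the old range and the other young libraries above it. The log2 fold change was -0.47 ± 0.15 (adjusted p = 0.130 in limma). With voom it was -0.62 (adjusted p = 0.0039), and without young replicate 2 it was -0.61 (adjusted p = 0.044). Of 8 fits with a library left out, only the fit without young replicate 2 called Tgfbr3l, and the adjusted p in limma reached 0.255. Of 12 other alternatives, only voom called it. Exons of Gm49320, on the same strand, overlap 1530 of the 2930 exon bases of Tgfbr3l, so that its fragments are uncertain. Igsf1, a membrane protein of the anterior pituitary, was at 46.0, 32.6, 44.4 and 44.5 FPKM in young and 67.8, 72.1, 85.4 and 33.6 FPKM in old libraries, with old replicate 4 among the young values (log2 fold change 0.56 ± 0.29, adjusted p = 0.305).

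Among the ligands, Gdf3 had 1, 0, 3 and 1 fragments in young libraries and 8, 21, 16 and 1 in old ones. The log2 fold change was 1.32 ± 0.45 (adjusted p = 0.152 in limma). Without old replicate 4, which was at the young level, it was 1.77 (adjusted p = 0.035). Of 7 fits with a library left out, only that fit called Gdf3, and the adjusted p in limma reached 0.304. None of 11 other alternatives called it. Gdf11, a ligand of the same type II receptors, was at 2.14 ± 0.596 FPKM in young and 1.43 ± 0.410 FPKM in old libraries (log2 fold change -0.54, adjusted p = 0.291).

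Among the intracellular genes, Zfyve9, whose product SARA presents SMAD2 and SMAD3 to the receptors, ranged from 3.03 to 3.65 FPKM in the young group and from 3.80 to 4.29 FPKM in the old group, without overlap (log2 fold change 0.28 ± 0.09, adjusted p = 0.149). Smad2 was at 3.77 to 5.03 and 4.73 to 5.74 FPKM (0.29 ± 0.12, adjusted p = 0.208). Smurf1, which encodes a ubiquitin ligase that acts on SMAD proteins and receptors, ranged from 4.81 to 6.26 FPKM in the young group and from 4.04 to 4.78 FPKM in the old group, without overlap (-0.26 ± 0.11, adjusted p = 0.222). With voom the log2 fold change of Smurf1 was -0.41 (adjusted p = 0.029). Smad3 (-0.09), Smad4 (0.17) and Smad7 (0.22, an inhibitory SMAD) had adjusted p-values of 0.333 to 0.662.

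Of 8 gonadotroph genes listed, all were tested, and 2 passed as lower in old (Gnrhr and Lhb) and none as higher. Of all genes tested, 0.472% passed as lower and 1.86% as higher. At an unadjusted p under 0.05 there were 3 gonadotroph genes, beside 21.8% of all genes tested. Gnrhr, the receptor for gonadotropin-releasing hormone, was at 12.0, 12.4, 13.6 and 15.5 FPKM in young libraries and at 6.68, 4.18, 4.79 and 5.63 FPKM in old ones. It fell by 1.33 ± 0.16 on the log2 scale, without overlap (adjusted p = 0.017 in limma). Lhb, the beta subunit of luteinizing hormone, was at 246, 178, 236 and 270 FPKM in young libraries and at 142, 140, 122 and 138 FPKM in old ones. Again without overlap, it fell by 0.76 ± 0.14 on the log2 scale (adjusted p = 0.044). The Lhb call was lost when any library but young replicate 2 was left out (adjusted p = 0.078 to 0.118), and the Gnrhr call only without young replicate 3 (adjusted p = 0.054).

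Fshb, the textbook target of activin and inhibin, did not pass. It was at 11.3, 18.8, 45.1 and 55.2 FPKM in young replicates 1 to 4 and at 45.2, 65.4, 46.5 and 54.2 FPKM in old ones. The young libraries spread widely, and the pair with low hemoglobin held the lowest values. The log2 fold change was 0.95 ± 0.49 (adjusted p = 0.303). Within the 3 libraries with little hemoglobin, the log2 ratio of the Fshb means, formed in the same way as for Inhbb, was 1.58, within the other 5 it was 0.14, and over all 8 it was 0.70. Inhbb over Fshb was at 0.287, 0.164, 0.122 and 0.0738 in young libraries and at 0.0763, 0.0698, 0.126 and 0.0976 in old ones, with overlap (log2 difference -0.67, exact permutation p = 0.229, adjusted p = 0.533). The log2 difference was -0.34 without young replicate 1 and -0.99 without young replicate 4. The ratio was higher than in any old library in young replicates 1 and 2 only.

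Gata2, a transcription factor of gonadotrophs and thyrotrophs, was at 3.09, 1.81, 3.02 and 3.29 FPKM in young and 5.58, 5.15, 8.52 and 5.17 FPKM in old libraries. The ages did not overlap, with a log2 fold change of 1.10 ± 0.24 (adjusted p = 0.059 in limma, and 0.0062 with voom). The shared alpha subunit gene Cga (0.07, adjusted p = 0.912), Nr5a1 (-0.26), Foxl2 (-0.29) and Egr1 (-0.35) did not pass.

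**Figure D4:**
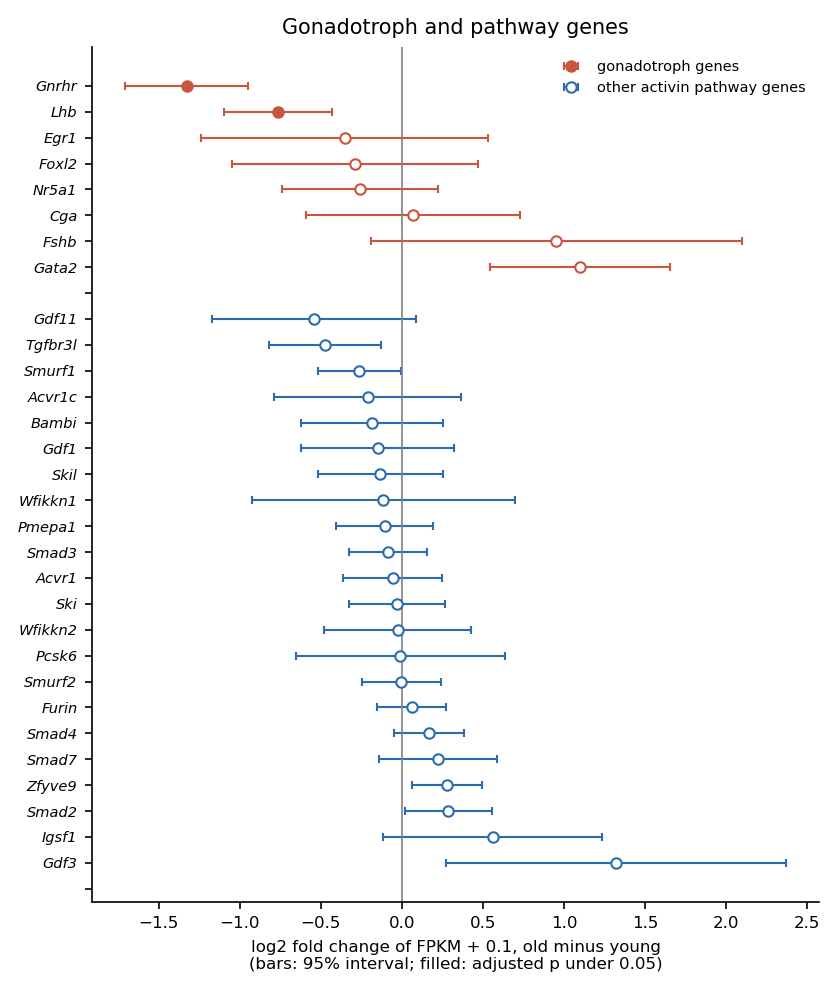
Log2 fold change, old minus young, with 95% intervals for the 8 gonadotroph genes (red) and the 22 other activin pathway genes tested (blue); filled points passed an adjusted p under 0.05. Gnrhr (-1.33) and Lhb (-0.76) are the filled points, and none of the pathway genes is filled.

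A few markers of other cells of the gland passed the test, and their part in the values of the 9 genes was not tested. Of all 23498 genes tested, 16446 had a log2 fold change above 0 and 7052 below. Of the same genes, 1.86% passed as higher in old and 0.472% as lower. Of 6 macrophage genes, all had a log2 fold change above 0 and 1, Lyz2, passed as higher (1.31, adjusted p = 0.048), and their FPKM summed to between 21.3 and 37.8 per young library and between 45.9 and 63.9 per old library. Of 6 fibroblast genes, all were below 0 and 2 passed as lower, Col1a1 (-1.55, adjusted p = 0.011) and Col3a1 (-1.59, adjusted p = 0.018), while the most abundant of them, Col1a2, did not (-0.07), and the sums were 64.2 to 78.0 and 44.1 to 73.3 FPKM. Gh, of the somatotrophs, fell by 1.36 on the log2 scale (adjusted p = 0.0076), and the hormone genes together took 12.0 to 14.1% of fragments in young and 9.05 to 11.6% in old libraries. None of 5 endothelial genes (Plvap the most abundant) and 4 folliculostellate or stem cell genes (Sox2 the most abundant) passed, nor did Prl, Tshb, Pomc, Tbx19, Pax7, Pou1f1 or Pitx1. Hemoglobin genes did not pass either, with sums of 12.6 to 108 FPKM among young libraries and 15.7 to 123 FPKM among old ones. The 4 posterior lobe genes summed to at most 0.0848 FPKM in young libraries and 6.48 FPKM in old ones.

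The genes whose profile over the 8 libraries was most like that of Acvr2b were Gm20460, Gm10657 and Klhl13. The measure was the root mean square difference of log2(FPKM + 0.1), each gene centred on its own mean, among 14535 genes averaging 1 FPKM or more. It was 0.040, 0.060 and 0.066 for these genes, beside a median of 0.28 and a 1st percentile of 0.12 over all of them. Klhl13 averaged 5.36 FPKM in young and 7.87 FPKM in old libraries. The same 3 genes came first with RLE scaling. That scaling shifts both genes of a pair alike in each library and could hardly change the measure, so it is no separate check.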

How the data were processed

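Whole pituitary of young and old mice was sequenced as polyadenylated RNA, with 4 libraries per age. By the submitters' notes and the methods, reads were mapped by the authors to GRCm38 (STAR 2.6.1a), with fragments counted over exons by featureCounts and edgeR 3.28.1 used for expression values; the sources used here do not give the annotation release or the handling of strand. The deposited values are FPKM, 49585 rows per library, scaled to exon length and to the whole library. Because these are not counts, log2(FPKM + 0.1) was fitted with limma 3.58.1 (R 4.3.3), trend off, over genes averaging 0.1 FPKM or more. The members, gene lists and tests were chosen with earlier results of these data known. All 9 members were named, with any gene of the pathway and gonadotroph lists, and for each other list the most abundant gene and those that passed. A further gonadotroph gene was left out of the lists and is not reported here.

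Fragments were recovered with GENCODE M21 exon lengths: 90.31 to 91.38% of low values were whole within 0.01. Fragments of Inhba, Fst and Acvr1b rest on a fitted length, the shortest to give whole fragments in all 8 libraries, and are lower limits. The recovered genes held 99.954 to 99.962% of each total. Library totals were 15042321 to 20429604 fragments, and 3 fragments was taken as the limit that a count of 0 allows. No libraries of 1 age agreed within sampling noise. The limma script was tested on simulated data. Ratios used scipy 1.17.1. Alternatives were other pseudocounts (1 and 0.01), filters, library scalings, a mean-variance trend, voom (with TMM scaling), a replicate block and each library left out. The split by hemoglobin was added after seeing the data. The test of Fst over Inhbb had been planned without a pseudocount and could not be made, since libraries were at 0.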

Additional observations from a re-analysis of the deposited data

Results flagged for a closer look

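Of 92 groups of 4 libraries examined, 9 had a library whose gap to the nearest other one exceeded Dixon's 95% critical value as a share of the group's range, and chance alone gives about 1 group in 20. Among the members, Inha in young replicate 2 was at 7.35 FPKM, where the other young libraries were at 8.30 to 8.48. Acvr1b in old replicate 4 was at 5.40 FPKM, where the other old libraries were at 5.80 to 5.86. The ratio of Inhba to Inhbb in young replicate 3 was 0.0497, below 0.0949 to 0.0997 in the others, and the ratio of Tgfbr3 to Acvr2a in old replicate 1 was 2.55, below 3.50 to 3.67.

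Among the other pathway genes, Acvr1, a type I receptor gene, was at 5.83 FPKM in young replicate 4, above 4.04 to 4.31 in the others. Igsf1 was at 32.6 FPKM in young replicate 2, below 44.4 to 46.0. Wfikkn1, which encodes a secreted binding protein of related ligands, was at 0.491 FPKM in old replicate 4, above 0.105 to 0.164. Among the gonadotroph genes, old replicate 3 held the highest values of Foxl2, at 7.78 FPKM against 3.27 to 3.55, and of Gata2, at 8.52 FPKM against 5.15 to 5.58.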

How the results depend on the processing

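The direction of Acvr2b was kept under all 20 alternatives and its call under 4 of them, pseudocounts of 1 and 0.01, a mean of at least 1 FPKM and the mean-variance trend (smallest adjusted p = 0.022). The call was lost with no filter on low values (log2 fold change 0.53, adjusted p = 0.066), TMM (0.40), RLE (0.39) and upper-quartile scaling (0.39), library sizes without hormone and ribosomal RNA repeat genes (0.40), voom (0.41), and in the 5 libraries with more hemoglobin (0.52, adjusted p = 0.205), so that the number of members higher in old was then 0. It was also 0 with each library left out, where the log2 fold change was 0.46 to 0.59.

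Directions turned for members that had not passed. In the order TMM, RLE, upper quartile, library sizes without hormone and ribosomal RNA repeat genes, and voom, the log2 fold changes were -0.0081, -0.018, -0.016, -0.0019 and -0.0065 for Inha, -0.054, -0.064, -0.061, -0.047 and -0.062 for Acvr2a, and -0.084, -0.094, -0.092, -0.078 and -0.082 for Tgfbr3, and Acvr2a was at -0.055 in the 5 libraries with more hemoglobin. With libraries left out, Inhba ranged from -0.35 to 0.019 (above 0 only without old replicate 1), the ratio of (Fst+Fstl3)/(Inhba+Inhbb) from -0.15 to 0.27 in log2 difference, and that of Tgfbr3/Acvr2a from -0.085 to 0.093. The cause was not tested.

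Of all genes, the number higher in old (436) became 689 with a pseudocount of 1, 263 with no filter, 796 with a mean of at least 1 FPKM, 207 with TMM, 211 with RLE, 213 with upper-quartile scaling, 212 without hormone and ribosomal RNA repeat genes, 705 with the mean-variance trend, 29 in the 5 libraries, and 64 to 327 with a library left out. The number lower (111) became 200, 220, 217 and 189 under those 4 scalings, 671 with voom, 31 in the 5 libraries, and 21 to 163 with a library left out. Of other pathway genes, the number lower was 2 with voom and 0 to 1 with a library left out, and the number higher 0 to 1. Of gonadotroph genes, the number higher (Gata2) was 1 with a pseudocount of 1, a mean of at least 1 FPKM, the trend and voom, and the number lower was 1 with a pseudocount of 0.01 and with no filter, 0 in the 5 libraries, and 0 to 2 with a library left out.

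The labels give both ages replicate numbers 1 to 4, but same-numbered libraries did not deviate together over 23498 genes (correlations of deviations from the age means of 0.037, -0.037, -0.0045 and 0.0064), and not every library correlated best with its own number, so they share only a number. With the replicate block, 4 genes were higher and 0 lower, the numbers were 0 for members higher and 0 for gonadotroph genes lower, and Acvr2b was at 0.53 (adjusted p = 0.173). Depth limits Inhba and Fst first, since they rest on the fewest fragments.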
